A study of Homo sapiens with 49 samples.

Results

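Human SHEP-21N neuroblastoma cells were compared after 24 h and after 16 h of MYCN shutdown. The comparison used every deposited column of these times, 3 RNA-seq libraries at each, 6 of the 20 libraries of the SHEP-21N time course and of 49 samples in the series. Tested genes were those with a mean unnormalised FPKM (fragments counted per length of transcript and per size of library) of 1 or more over the time course, 11867 of 23621 entries other than spike-ins. MYCN in this line is a TET-off transgene, and doxycycline in the medium (0.2 µg/ml) shuts it down. Cells of both groups were grown in RPMI medium with tetracycline-free serum and received doxycycline, for 24 h or 16 h before lysis. A group kept in culture for the same hours without doxycycline was not analysed here, so hours of shutdown and hours in culture cannot be told apart. Each group is the same line, and no label says whether the libraries of a group came from separate cultures. The p-values therefore measure the spread between libraries, which may be technical. Libraries are named by the numbers 0, 1 and 2 of their columns, and values are listed in that order.

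MYCN is a basic helix-loop-helix transcription factor that binds E-boxes as a partner of MAX and, when amplified, drives high-risk neuroblastoma. It raises the output of many growth genes, among them those for ribosomes, nucleotide synthesis and cell division. In adherent cells, many genes also follow serum, cell spreading and growth factor signals: ERK signalling induces immediate early transcription factors and their feedback inhibitors, YAP and TAZ act with TEAD factors on genes such as CTGF and ANKRD1, and SRF acts on actin and contractile genes. SHEP-21N cells descend from the SH-EP line, an adherent, mesenchymal neuroblastoma line without MYCN amplification.

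Both deposited scales were used. Unnormalised FPKM express a gene relative to its own library's total. Rescaled FPKM were set by the authors to ERCC spike-in RNA, which per the labels' protocols was added at lysis of counted cells. FPKM carry no read number, so depth per library is unknown. Spike-ins summed to between 26061 and 47480 unnormalised FPKM in the 6 libraries, and library medians of log2(rescaled FPKM + 1) were 3.53, 4.01 and 3.84 at 16 h against 3.77, 3.51 and 3.23 at 24 h. The medians overlapped and their means differed by -0.29 (exact permutation test, two-sided, p = 0.2; the smallest p for 3 against 3 is 0.1). On unnormalised values the medians differed by -0.03 (exact permutation test, p = 0.1). Across tested genes, Pearson's r of log2 values was 0.964 to 0.970 within a group and 0.955 to 0.965 between groups, a description across genes. Fewer cells of a type and less RNA per cell cannot be told apart in such bulk samples.

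MYCN stayed low at both times. Its rescaled FPKM were 9.46, 14.3 and 12.3 at 16 h and 17.3, 13.9 and 11.2 at 24 h. The groups overlapped, and both stood far under the 789 ± 93.4 (SD, n = 2) of the cells without doxycycline. The difference of 24 h minus 16 h in log2(rescaled FPKM + 1) was 0.21 (SE 0.20, 95% interval -0.20 to 0.62, adjusted p = 0.418 by limma with the Benjamini-Hochberg method, as for every adjusted p below). On unnormalised values it was 0.47 (SE 0.08, adjusted p = 0.000581), so the call depends on the scale. MYC, the paralog of MYCN, stood at 7.87, 12.5 and 10.6 rescaled FPKM at 16 h and at 6.27, 5.87 and 4.27 at 24 h. Every 24 h library was below every 16 h library, and MYC fell (difference -0.80, SE 0.16, adjusted p = 0.00761; unnormalised -0.54, adjusted p = 0.000136). Without 16 h number 1 or 24 h number 2 its rescaled call was lost, with adjusted p up to 0.0781.

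On the rescaled scale 29 genes were higher at 24 h (0.244% of those tested) and 905 were lower (7.63%). The median gene differed by -0.27, and 89.8% of tested genes lay below 0. On the unnormalised scale 1323 genes were higher (11.1%) and 2205 lower (18.6%), with a median of -0.02. Rescaled values centred on each library's median gave 1373 higher (11.6%) and 1367 lower (11.5%), so the share of changed genes that were higher was 3.1%, 37.5% and 50.1% on the 3 scales. All 29 genes called higher on the rescaled scale were also higher unnormalised, where they were 2.19% of the higher calls. Of the 905 lower genes, 830 were also lower unnormalised (91.7% of the rescaled and 37.6% of the unnormalised calls). All 24 h libraries lay above all 16 h libraries for 72 genes (0.607%) and below them for 1338 (11.3%) on the rescaled scale, and for 2831 (23.9%) and 3576 (30.1%) unnormalised. Differences of more than 1 log2 unit were called for 65 lower genes and 1 higher gene rescaled, and for 27 and 10 unnormalised.

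The number of lower genes on the rescaled scale moved with single libraries. It was 121 without 16 h number 1, 140 without 24 h number 2, 204 without 16 h number 2 and 222 without 24 h number 1, but 4235 without 16 h number 0 and 4565 without 24 h number 0. The unnormalised count of lower genes ran only from 1431 to 1986 and that of higher genes from 858 to 1081. Higher genes on the rescaled scale ran from 8 to 29. Genes given with values below that passed on the rescaled scale kept that call without each of the 6 libraries in turn unless stated otherwise. A gene list's shares can be read against those of all tested genes, 7.63% lower and 0.244% higher rescaled, and 18.6% lower and 11.1% higher unnormalised. For a gene list on the rescaled scale, the range given over these 6 omissions has its low end without a library numbered 1 or 2 and its high end without a library numbered 0.

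**Figure D1:**
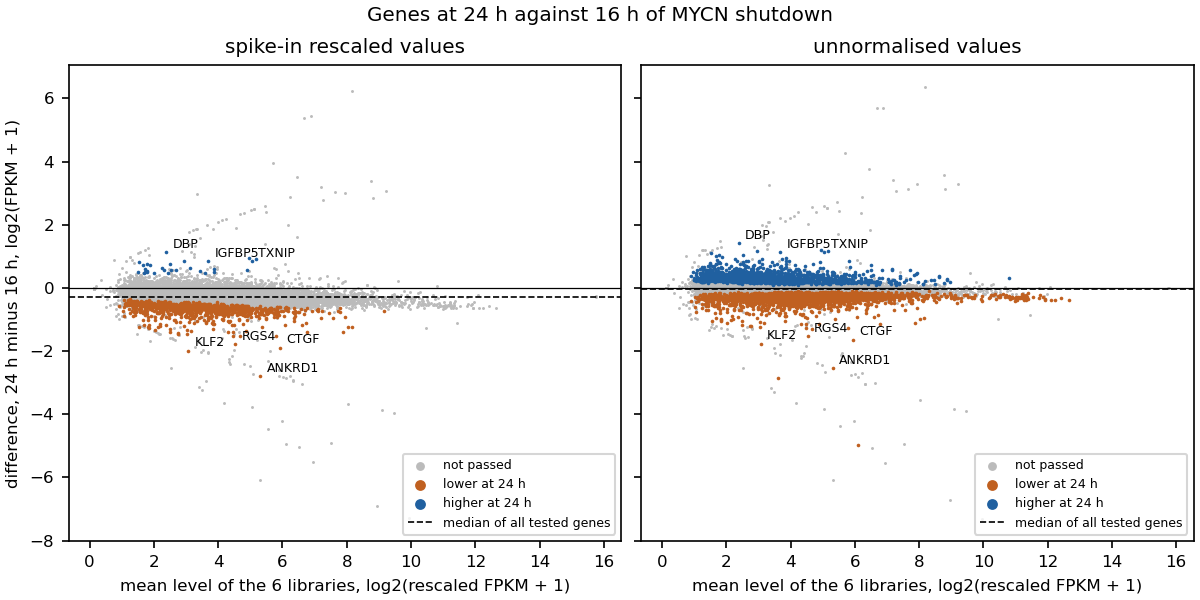
Each point is a tested gene, with its mean level in the 6 libraries on the horizontal axis and its difference (24 h minus 16 h) on the vertical axis, for rescaled values on the left and unnormalised values on the right. Coloured points passed an adjusted p of 0.05: 29 higher and 905 lower on the left, 1323 and 2205 on the right, and the dashed lines mark the medians of -0.27 and -0.02.

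Of the 12 largest falls, the first and the third, ANKRD1 and CTGF, are known targets of YAP and TEAD. ANKRD1, an ankyrin repeat protein of the sarcomere and nucleus, stood at 53.4, 81.8 and 70.1 rescaled FPKM at 16 h and at 11.0, 8.70 and 7.50 at 24 h. No library of one group came near the other, and the mean was 7.56-fold lower at 24 h (difference -2.78, SE 0.16, adjusted p = 1.53e-08; unnormalised -2.54, adjusted p = 1.51e-10). CTGF, now CCN2, a secreted matricellular growth factor, stood at 78.0, 113 and 95 at 16 h and at 28.7, 24.8 and 21.3 at 24 h. These groups were also well apart (difference -1.89, SE 0.18, adjusted p = 8.27e-06; unnormalised -1.64, adjusted p = 1.32e-09). CYR61, now CCN1, its relative in the same family, went from 266, 419 and 327 to 152, 127 and 106 without overlap (difference -1.38, SE 0.20, adjusted p = 0.000457). NOG, which encodes the BMP antagonist noggin, went from 2.39, 3.70 and 3.17 to 0.967, 0.709 and 0.542, again without overlap (difference -1.23, SE 0.14, adjusted p = 4.06e-05).

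The 250 bases before the start of ANKRD1 and CTGF are printed because they belong to the 2 YAP and TEAD targets among the 3 largest falls. They come from RefSeq (GRCh38.p14), at chr10:90921088-90921337, minus strand, and chr6:131951373-131951622, minus strand, read 5′ to 3′ toward the start. Capitals mark GGAATG, a core recognised by TEAD factors, or CCAAT, on either strand.
ANKRD1: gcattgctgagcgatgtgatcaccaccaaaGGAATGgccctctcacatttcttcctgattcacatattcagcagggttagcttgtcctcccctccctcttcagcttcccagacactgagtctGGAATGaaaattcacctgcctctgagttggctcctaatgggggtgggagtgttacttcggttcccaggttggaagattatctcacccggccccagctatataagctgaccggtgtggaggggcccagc
CTGF: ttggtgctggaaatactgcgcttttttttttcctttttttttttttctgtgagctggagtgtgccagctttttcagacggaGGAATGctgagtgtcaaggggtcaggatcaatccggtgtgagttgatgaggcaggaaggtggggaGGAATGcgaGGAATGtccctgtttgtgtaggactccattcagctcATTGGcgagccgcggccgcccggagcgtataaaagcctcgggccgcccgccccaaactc
ANKRD1 held GGAATG at 2 places, with first bases 220 and 128 bases before the start. CTGF held it at 3, at 169, 104 and 95 bases, and a CCAAT box at 59 bases, and the motifs do not overlap. Of all 27305 genes of the promoter table, 16.7% held GGAATG and 39.7% held CCAAT in at least 1 window of 300 bases (250 before to 50 after a start). A gene with several starts has several windows, so these are shares of genes and not of windows. A match of letters is a description and does not show that a factor binds there.

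Of the 24 tested YAP and TGF-beta target genes 8 fell and none rose on the rescaled scale (5 to 15 fell without single libraries); 11 fell and 1 rose unnormalised. The list's median was -0.40 beside -0.27 for all tested genes, and -0.15 beside -0.02 unnormalised. Among the other members that fell were AMOTL2, AJUBA and TGFB2, which were named after their values were seen.

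Immediate early genes and feedback inhibitors of ERK signalling were, of all lists, the one with the most members lower on both scales. Of 27 tested members 22 fell and none rose rescaled, and 23 fell and none rose unnormalised. The range without single libraries was 13 to 24 rescaled and stayed at 23 unnormalised. The median was -0.82 beside -0.27 for all genes, and -0.57 beside -0.02 unnormalised. JUNB, JUND, KLF4, ZFP36 and SRF were the members that did not pass on the rescaled scale.

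Among transcription factors of that list, KLF2, a Kruppel-like factor known to respond to shear stress and MEK5 signalling, stood at 10.2, 15.4 and 11.8 at 16 h and at 2.82, 2.42 and 1.90 at 24 h. The groups were far apart (difference -1.98, SE 0.17, adjusted p = 3.24e-06; unnormalised -1.76, adjusted p = 3.86e-08). FOSL1, the AP-1 subunit FRA1, stood at 63.4, 101 and 79.9 and then at 31.9, 29.8 and 21.8. All its 24 h libraries were lower (difference -1.51, SE 0.21, adjusted p = 0.00035). EGR1, an early zinc finger factor, went from 3.64, 4.27 and 3.97 to 0.916, 1.33 and 1.12 without overlap (difference -1.23, SE 0.15, adjusted p = 0.000119). JUN, the partner of FOS proteins in AP-1, went from 23.5, 38.2 and 29.5 to 16.0, 12.3 and 9.89, also apart (difference -1.19, SE 0.19, adjusted p = 0.00117). KLF6 (-1.14) fell as well, and so did the ETS factors ETV4 (-1.20) and ETV5 (-1.16), which were singled out after their values were seen.

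The upstream 250 bases of KLF2 (chr19:16324576-16324825, plus strand) are shown as the contrast among the 3 largest falls.
KLF2: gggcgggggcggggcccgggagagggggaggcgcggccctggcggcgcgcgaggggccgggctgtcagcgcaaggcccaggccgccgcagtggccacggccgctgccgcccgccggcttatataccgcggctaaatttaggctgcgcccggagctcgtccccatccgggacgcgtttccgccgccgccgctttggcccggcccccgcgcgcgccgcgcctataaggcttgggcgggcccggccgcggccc
They hold none of the motifs searched, on either strand, which says only that these letters are not in this window. Besides CCAAT these were the E-box of MYC proteins (CACGTG, in at least 1 window of 8.77% of all genes of the promoter table) and the AP-1 site (TGAGTCA, in 6.05%). The core of the cell cycle homology region (TTTGAA) lay in 18.2% of genes, counted the same way, and an ATF4 type element (TGATGNA) in 12.1%. GGAATG and the CArG box bound by SRF (in 1.6%) were added after the values were seen.

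Among the inhibitors, DUSP1, a phosphatase of MAP kinases, stood at 29.7, 45.0 and 36.0 at 16 h and at 14.8, 11.4 and 10.1 at 24 h. Each 24 h library lay below each 16 h library (difference -1.53, SE 0.18, adjusted p = 5.29e-05; unnormalised -1.29, adjusted p = 1.32e-09). DUSP5, a nuclear phosphatase of ERK, went from 4.16, 6.11 and 5.32 to 2.02, 1.42 and 1.42, with the groups apart (difference -1.24, SE 0.15, adjusted p = 9.95e-05). SPRED2, which restrains RAS signalling and was singled out after its values were seen, fell by 0.82. RGS4, an inhibitor of G protein signalling outside the list, stood at 27.7, 39.9 and 36.7 and then at 11.6, 8.95 and 7.94. It was the fourth largest fall by the naming rule, without overlap (difference -1.77, SE 0.15, adjusted p = 3.24e-06).

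Also among the 12 largest falls were MMP3, F3, TGM2, IL11 and CCL2, which encode secreted or surface proteins. MMP3, a matrix metalloproteinase, stood at 26.1, 36.3 and 32.6 and then at 12.5, 10.5 and 8.48 (difference -1.51, SE 0.17, adjusted p = 4.06e-05; unnormalised -1.26, adjusted p = 1.51e-10). F3, the tissue factor that starts clotting, went from 8.34, 12.6 and 12.4 to 4.01, 2.85 and 3.11 (difference -1.47, SE 0.14, adjusted p = 8.65e-06). TGM2, which cross-links matrix proteins, went from 7.48, 10.3 and 8.76 to 2.91, 2.56 and 2.29 (difference -1.45, SE 0.16, adjusted p = 4.06e-05). In each of these genes the 24 h libraries were clearly the low ones. IL11, a cytokine of the interleukin 6 family, went from 6.71, 10.9 and 8.85 to 3.47, 2.59 and 1.96 (difference -1.42, SE 0.16, adjusted p = 4.58e-05). CCL2, a chemokine that attracts monocytes, went from 6.86, 6.89 and 7.65 to 2.37, 2.10 and 1.81 (difference -1.40, SE 0.13, adjusted p = 8.65e-06). Neither cytokine showed any overlap between the groups. PLAU, the urokinase plasminogen activator, and PTX3, a pentraxin, were chosen after their values were seen and fell by 1.38 and 1.28.

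Of 15 tested NF-kB and cytokine genes 5 fell and 1 rose on the rescaled scale (4 to 10 fell without single libraries), and 6 fell and 1 rose unnormalised. The others named among the falls were LIF, a cytokine that signals through gp130 (-0.93, adjusted p = 0.00223), and CXCL2, a neutrophil chemokine (-0.88, adjusted p = 0.00423). Their median was -0.48 rescaled and -0.23 unnormalised. Of 23 tested IGF, EGF and other signalling genes 4 fell and 1 rose (2 to 11 fell without single libraries), and 7 fell and 8 rose unnormalised. EDN1, endothelin 1, a vasoconstrictor peptide, stood at 9.71, 13.9 and 12.1 and then at 4.62, 3.76 and 3.61. Its 24 h libraries lay well below (difference -1.36, SE 0.14, adjusted p = 2.02e-05). HBEGF, a ligand of the EGF receptor, stood at 29.1, 45.9 and 35.7 and then at 19.1, 15.6 and 13.2. It too showed no overlap (difference -1.15, SE 0.16, adjusted p = 0.000435). NRG1, neuregulin 1, fell by 0.89 (adjusted p = 0.00571), a call lost without 16 h number 1 (adjusted p = 0.0568).

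ACTA2, smooth muscle actin, was the last of the 12 largest falls. It stood at 21.7, 33.7 and 27.7 at 16 h and at 12.8, 11.3 and 6.51 at 24 h. The groups did not overlap (difference -1.38, SE 0.23, adjusted p = 0.00188). TAGLN, the actin-binding transgelin, went from 83.2, 133 and 100.4 to 68.1, 57.1 and 39.3, also without overlap (difference -0.94, SE 0.23, adjusted p = 0.0204), and its call was lost without any one of the libraries numbered 1 or 2. Of the 31 tested mesenchymal identity genes 4 fell and none rose on the rescaled scale, these 2 and FOSL2 among them (1 to 10 fell without single libraries). FOSL2, an AP-1 subunit, lost its call without 16 h number 1 or 24 h number 2. Unnormalised, 9 rose and 7 fell. Those higher unnormalised were the collagens COL1A1, COL3A1 and COL5A2, with THBS1, PRRX1, SNAI2, WWTR1, NOTCH2 and IGFBP6. COL3A1 stood at 189, 251 and 236 rescaled FPKM and then at 313, 258 and 214, overlapping (difference 0.21, adjusted p = 0.389; unnormalised 0.47, adjusted p = 3.78e-06).

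**Figure D2:**
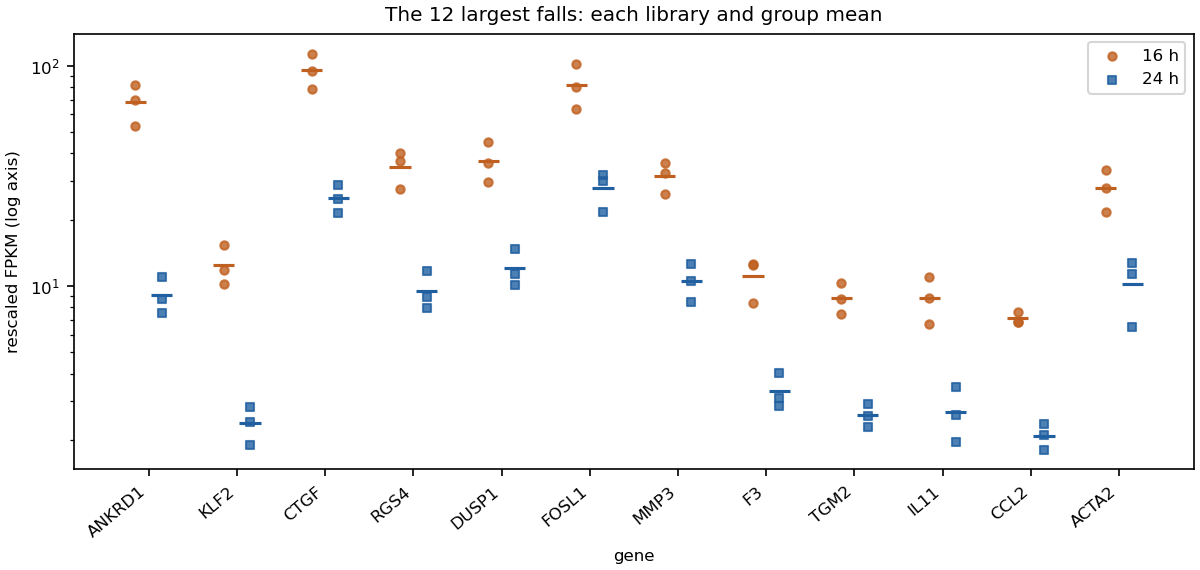
Rescaled FPKM on a log axis for the 12 largest falls, with circles for the 3 libraries of 16 h, squares for the 3 of 24 h and bars for group means. In each gene every 24 h library lies below every 16 h library, from ANKRD1 (difference -2.78) to ACTA2 (-1.38).

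Cell cycle genes were lower at 24 h in part. CCND1, cyclin D1, which starts G1 progression in response to growth factors, stood at 33.2, 49.3 and 42.1 at 16 h and at 17.6, 15.7 and 12.6 at 24 h. Its groups were well apart (difference -1.38, SE 0.17, adjusted p = 0.000121; unnormalised -1.13, adjusted p = 1.32e-09). UBE2C, which the anaphase-promoting complex uses to mark mitotic proteins, went from 291, 459.7 and 348 to 196, 157 and 111, with no overlap (difference -1.25, SE 0.22, adjusted p = 0.00283). CDK1, the kinase that drives entry into mitosis, went from 108, 162 and 128 to 74.8, 54.5 and 46.7, also apart (difference -1.17, SE 0.18, adjusted p = 0.00105). TTK, a spindle checkpoint kinase, fell by 0.81 (SE 0.14, adjusted p = 0.00284).

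Of 34 tested mitosis and spindle genes 8 fell and none rose rescaled (3 to 22 fell without single libraries), and 16 fell and 3 rose unnormalised. The 3 were CCNB2, KIF20A and PTTG1. KIF20A, a kinesin of cytokinesis, stood at 29.2, 39.9 and 35.1 and then at 50.8, 41.8 and 31.8, overlapping (difference 0.24, adjusted p = 0.318; unnormalised 0.49, adjusted p = 3.74e-06). Of 34 DNA replication and E2F target genes 7 fell and none rose (0 to 22 without single libraries), and 18 fell and 1 rose unnormalised. ORC6, a subunit of the origin recognition complex, went from 30.0, 47.5 and 38.4 to 26.9, 21.2 and 17.7 without overlap (difference -0.78, SE 0.17, adjusted p = 0.011), and its call was lost without any one of the libraries numbered 1 or 2. The medians were -0.47 for mitosis and -0.45 for replication beside -0.27 for all genes. Of 23 G1 cyclins, kinases and inhibitors 5 fell and none rose (1 to 16 without single libraries), and 11 fell and 2 rose unnormalised, the 2 being CDKN1C and RBL2. CDKN1C, the kinase inhibitor p57, stood at 3.33, 4.09 and 4.22 and then at 7.70, 5.30 and 4.25 (difference 0.44, adjusted p = 0.11; unnormalised 0.72, adjusted p = 0.000161). Its 24 h libraries all lay above the 16 h ones, the nearest by a small margin. Replication histones had no call among 24 tested on either scale (1 lower at an unadjusted p under 0.05 rescaled, 0 unnormalised). In the fit of the 6 libraries alone 10 were lower, and with the replicate block 7. HIST1H4B, with the smallest adjusted p of the named histones in the fit of 6 libraries (6.72e-12), stood at 3.93, 0.535 and 0.106 and then at 0.105, 0.0888 and 0.282, so that its groups overlapped and 1 library of 16 h stood apart.

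The largest rise was in DBP, a PAR bZIP transcription factor that is an output of the circadian clock. DBP stood at 2.06, 1.71 and 3.05 rescaled FPKM at 16 h and at 7.34, 6.25 and 4.82 at 24 h. All 24 h libraries were higher (difference 1.13, SE 0.18, adjusted p = 0.00114; unnormalised 1.42, adjusted p = 2.59e-06). TEF, of the same PAR bZIP family, went from 0.847, 1.22 and 1.16 to 3.33, 3.00 and 1.87, without overlap at a low level (difference 0.83, SE 0.15, adjusted p = 0.00339). In the opposite direction ARNTL, the BMAL1 subunit of the clock's activator, went from 4.81, 7.08 and 6.88 to 3.59, 3.13 and 2.44. It fell without overlap (difference -0.83, SE 0.15, adjusted p = 0.00267). CRY1, a repressor of that activator, fell by 0.67 (adjusted p = 0.022), a call lost without any one of the libraries numbered 1 or 2. Of 14 tested clock genes 2 rose and 2 fell rescaled (1 to 5 fell and 2 rose without single libraries), and 6 rose and 3 fell unnormalised. The others that rose unnormalised were PER1, CRY2, NR1D1 and NR1D2, repressors within the clock, and the other that fell was CSNK1E.

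DDIT4 and TXNIP, both known as restraints on growth, also rose. DDIT4, the mTORC1 inhibitor REDD1, stood at 19.7, 25.1 and 26.1 and then at 59.8, 43.5 and 35.8. Its groups did not overlap (difference 0.92, SE 0.21, adjusted p = 0.0148; unnormalised 1.18, adjusted p = 5.86e-07), and the rescaled call was lost without number 1 of either group (adjusted p up to 0.0601). TXNIP, which binds thioredoxin and limits glucose uptake, went from 19.5, 20.2 and 27.8 to 53.8, 37.3 and 34.9, without overlap (difference 0.86, SE 0.17, adjusted p = 0.00643), and its call was lost without 16 h number 1 (adjusted p = 0.0556). DHRS3, a retinaldehyde reductase, went from 15.4, 24.1 and 20.3 to 51.4, 39.0 and 29.1. It also showed no overlap (difference 0.95, SE 0.22, adjusted p = 0.0152), and its call was lost without 16 h number 2 or 24 h number 1 (adjusted p up to 0.0581).

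The upstream 250 bases of DBP (chr19:48637380-48637629, minus strand) and DDIT4 (chr10:72273674-72273923, plus strand) are printed because they belong to 2 of the 3 largest rises, a clock output and a stress-induced gene. Capitals mark CCAAT on either strand.
DBP: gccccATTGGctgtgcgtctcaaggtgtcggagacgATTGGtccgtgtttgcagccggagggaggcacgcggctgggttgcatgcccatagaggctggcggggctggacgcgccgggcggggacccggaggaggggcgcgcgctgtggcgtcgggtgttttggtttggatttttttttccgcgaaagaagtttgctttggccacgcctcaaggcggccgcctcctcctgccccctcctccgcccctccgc
DDIT4: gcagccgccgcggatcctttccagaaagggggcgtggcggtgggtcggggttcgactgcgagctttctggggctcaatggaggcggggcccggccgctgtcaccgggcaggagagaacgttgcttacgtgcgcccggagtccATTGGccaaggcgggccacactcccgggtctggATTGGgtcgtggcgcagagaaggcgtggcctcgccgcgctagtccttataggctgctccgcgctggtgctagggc
DBP held CCAAT with first bases 245 and 214 bases before its start, and DDIT4 at 108 and 75 bases. None of the E-box, AP-1 or TEAD letters lay in either stretch. DHRS3, the other of the 3 largest rises, has 3 starts in the table and is not printed. It did hold such letters. GGAATG began 81 bases before its start 2 and 13 bases before its start 3, and the AP-1 letters began 85 bases before start 3. Of the tested genes 9337 of 11867 had a promoter in the table, under the 80% set for a comparison of motif shares between changed and other genes, so that comparison is void.

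The chemokines CXCL12 and CXCL14 rose together with IGFBP5, a secreted binder of insulin-like growth factors. CXCL12, the ligand of CXCR4, stood at 3.47, 4.84 and 4.94 and then at 11.3, 9.01 and 6.55. The groups did not overlap (difference 0.86, SE 0.17, adjusted p = 0.00638; unnormalised 1.16, adjusted p = 4.06e-07). IGFBP5 went from 7.32, 7.20 and 9.97 to 18.0, 14.7 and 13.9, also without overlap (difference 0.86, SE 0.14, adjusted p = 0.00186; unnormalised 1.13, adjusted p = 3.12e-06). CXCL14 went from 1.34, 1.60 and 1.63 to 4.26, 3.21 and 2.48, all higher (difference 0.76, SE 0.15, adjusted p = 0.00531). MAP2K6, a kinase that activates p38, went from 2.88, 3.14 and 3.63 to 7.38, 6.07 and 5.04, again without overlap (difference 0.76, SE 0.14, adjusted p = 0.00423).

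The remaining rises of the 12 largest were BMF, PCDH18 and SNHG4. BMF, a BH3-only promoter of apoptosis, stood at 2.39, 1.98 and 3.93 and then at 5.96, 4.46 and 3.98. The highest 16 h and lowest 24 h library nearly met (difference 0.64, SE 0.17, adjusted p = 0.0319), and the call was lost without 16 h number 1 or 24 h number 1 or 2. PCDH18, a protocadherin, rose by 0.64 (adjusted p = 0.0114) and lost its call without 16 h number 1. SNHG4, a small nucleolar RNA host gene, rose by 0.60 (adjusted p = 0.027) and lost it without number 1 of either group or 16 h number 2. BCL2L11, the BH3-only protein BIM, was chosen after its values were seen. It rose by 0.48 (adjusted p = 0.0453), a call that held without 24 h number 0 alone among the 6 omissions.

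**Figure D3:**
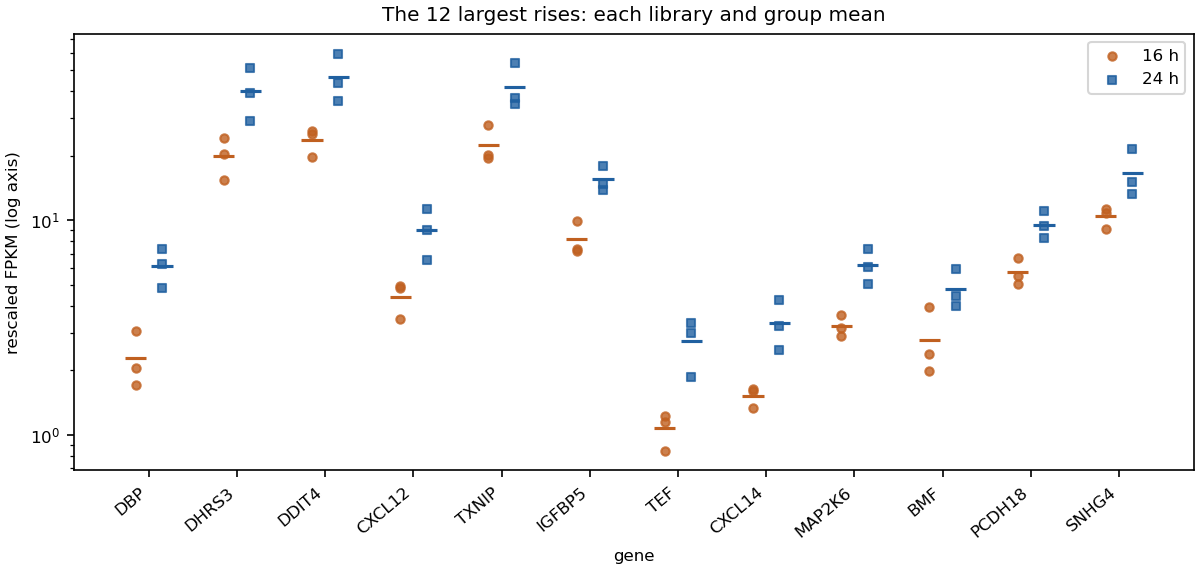
Rescaled FPKM on a log axis for the 12 largest rises, with circles for the 3 libraries of 16 h, squares for the 3 of 24 h and bars for group means. Every 24 h library lies above every 16 h library, from DBP (difference 1.13) to SNHG4 (0.60), with the closest approach in BMF (3.93 against 3.98).

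Several of the genes that fell from 16 h to 24 h had risen from 8 h to 16 h. ANKRD1 averaged 34.0 ± 0.248 rescaled FPKM at 0 h (SD, n = 2), 21.0 ± 3.08 at 8 h (n = 3 here and at later times), 68.4 ± 14.3 at 16 h and 9.06 ± 1.76 at 24 h. From 8 h to 16 h it rose by 1.64 (adjusted p = 2.77e-05) in the same limma fit, a contrast added after the data were seen. Over all tested genes 2.01% were higher and 0.455% lower in that contrast on the rescaled scale, and 15% and 13.2% unnormalised. CTGF averaged 72.6 ± 9.30, 35.5 ± 3.36, 95.5 ± 17.7 and 25.0 ± 3.70 at the same times, and DUSP1 32.6 ± 4.61, 15.2 ± 2.42, 36.9 ± 7.67 and 12.1 ± 2.44. Both rose from 8 h to 16 h, by 1.39 (adjusted p = 0.000261) and 1.22 (adjusted p = 0.000855). EDN1 averaged 11.6 ± 0.0542, 3.92 ± 0.581, 11.9 ± 2.09 and 4.00 ± 0.546, so its 24 h mean lay within 1 SD of that at 8 h, after a rise of 1.38 from 8 h to 16 h (adjusted p = 2.77e-05). CCND1 averaged 57.3 ± 5.51, 24.2 ± 3.43, 41.5 ± 8.05 and 15.3 ± 2.48, with its 16 h mean below that at 0 h. Its difference of 0.75 from 8 h to 16 h (adjusted p = 0.0228) did not keep its call without 8 h number 0 or 2 or 16 h number 1 or 2. The 4 calls above it were kept without each of the 6 libraries of 8 h and 16 h in turn. The 8 h and 24 h comparisons share the 16 h libraries. Genes here and in the next paragraph were chosen with their change from 16 h to 24 h known. That choice favours an opposite change from 8 h to 16 h.

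Among the genes that rose to 24 h, DDIT4 had fallen from 8 h to 16 h. DDIT4 averaged 17.7 ± 3.85 at 0 h, 48.8 ± 9.71 at 8 h, 23.6 ± 3.46 at 16 h and 46.4 ± 12.2 at 24 h. Its fall from 8 h to 16 h was 1.01 (adjusted p = 0.0122), a call lost without 8 h number 1 (adjusted p = 0.0704). TXNIP averaged 22.3 ± 2.81, 34.7 ± 3.87, 22.5 ± 4.63 and 42.0 ± 10.3. TEF averaged 0.860 ± 0.0414, 1.97 ± 0.149, 1.08 ± 0.201 and 2.73 ± 0.768. From 8 h to 16 h these 2 differed by -0.61 (adjusted p = 0.0713) and -0.52 (adjusted p = 0.0838), which did not pass on the rescaled scale. Unnormalised they passed, at -0.62 (adjusted p = 0.000646) and -0.59 (adjusted p = 0.000262). IGFBP5 was different, with means of 3.50 ± 0.226, 4.26 ± 0.529, 8.16 ± 1.56 and 15.5 ± 2.16, each higher than the one before. It rose by 0.79 from 8 h to 16 h (adjusted p = 0.00437). At 2 h, a time not averaged here, it stood at 3.58, 2.85 and 2.46, overlapping the 3.35 and 3.66 of 0 h. CXCL12 had the same order of means at 0 h, 8 h, 16 h and 24 h, with 1.78 ± 0.376, 3.11 ± 0.560, 4.42 ± 0.823 and 8.97 ± 2.40. Its difference from 8 h to 16 h did not pass rescaled (0.40, adjusted p = 0.362) but passed unnormalised (0.35, adjusted p = 0.0106). The means at 0 h are given as a description.

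**Figure D4:**
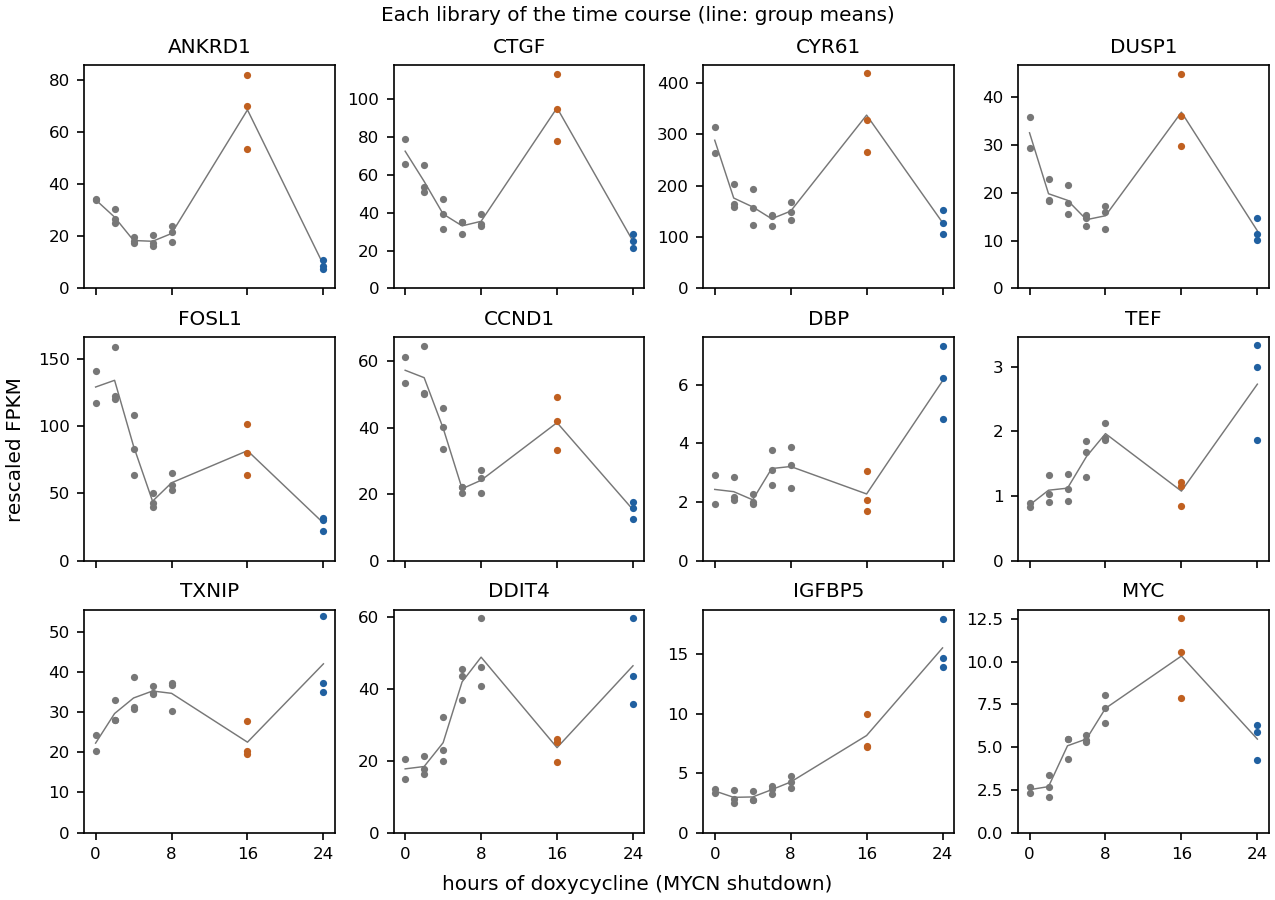
Rescaled FPKM of 12 genes against hours of doxycycline, each point a library (20 in all), orange at 16 h, blue at 24 h and grey at earlier times, with a line through the group means. ANKRD1, CTGF, CYR61 and DUSP1 are high at 16 h between lower values at 8 h and 24 h, the means of DDIT4, TXNIP and TEF are lower at 16 h than at 8 h and 24 h, and IGFBP5 has its highest values at 24 h.

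Stress genes were mixed. Of 24 tested integrated stress response genes 1 rose (DDIT4) and 1 fell rescaled (1 to 12 fell without single libraries), and 2 rose and 6 fell unnormalised (2 and 3 centred). The member that fell was PPP1R15A, GADD34, a regulator of the phosphatase that restores translation. It went from 20.8, 34.7 and 25.4 to 15.3, 12.8 and 9.11 without overlap (difference -1.06, SE 0.20, adjusted p = 0.00423). Of 23 endoplasmic reticulum chaperone and unfolded protein response genes 6 fell and none rose (0 to 14 without single libraries), and 10 fell and 1 rose unnormalised. MANF, a secreted protein of that response, went from 148, 249 and 188 to 118, 94.9 and 81.6 without overlap (difference -0.97, SE 0.20, adjusted p = 0.00872), and lost its call without 16 h number 1 or 24 h number 2. Of 24 p53 target genes 4 fell and none rose (2 to 11 without single libraries), and 7 fell and 2 rose unnormalised. Both GADD45A, a growth arrest gene, and PMAIP1, the BH3-only protein NOXA, were among them, with differences of -1.01 (adjusted p = 0.00275) and -0.85 (adjusted p = 0.00275). Of 20 heat shock chaperone genes 1 fell (0 to 10 without single libraries), and 2 rose and 6 fell unnormalised (2 and 3 centred).

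Lists of the growth programme known to follow MYC proteins differed in their share of lower genes. Rescaled, it was 18.5% in RNA polymerase I and III and 6.9% in nucleotide synthesis, beside 7.63% of all genes. The MYC and MAX network list is one of regulators and also holds ID and BHLHE genes. Its share was 26.3%, but its median was -0.25 beside -0.27 for all genes. None of 30 tested ribosome biogenesis genes passed on the rescaled scale, at a median of -0.41 (0 to 20 fell without single libraries). At an unadjusted p under 0.05, 15 were lower and none higher. Unnormalised, 15 fell and 1 rose, at a median of -0.15, and 8 fell on centred values. RRP12, needed to export ribosomal subunits, stood at 33.4, 51.3 and 41.9 and then at 31.8, 26.9 and 20.8. The groups did not overlap, yet it did not pass rescaled (difference -0.65, SE 0.20, adjusted p = 0.0558; unnormalised -0.40, adjusted p = 0.0019). None of 30 cytosolic ribosomal protein genes passed rescaled (median -0.51; 0 to 29 without single libraries; 21 lower at an unadjusted p under 0.05). Unnormalised 20 fell and none rose (median -0.24), but on centred values only 2 fell. That unnormalised count was 2 without 16 h number 1, 3 without 24 h number 1 or 2, and 24 without 24 h number 0. RPS6 stood at 1741, 2782 and 2271 and then at 2019, 1387 and 1175, overlapping (difference -0.58, adjusted p = 0.0688). Of 27 RNA polymerase I and III genes 5 fell (0 to 20), and 13 fell unnormalised. CD3EAP, a polymerase I subunit, fell by 0.69 (adjusted p = 0.0132), a call lost without any one of the libraries numbered 1 or 2.

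Of 29 nucleotide, polyamine and one-carbon genes 2 fell rescaled (0 to 13), the CTP synthase gene CTPS1 and RRM2 of ribonucleotide reductase, and 7 fell and 1 rose unnormalised (4 and 1 centred). Both lost their calls without any one of the libraries numbered 1 or 2. Of 19 tested genes of the MYC and MAX network list 5 fell and none rose (0 to 7), and 7 fell and 6 rose unnormalised. Besides MYC and the MAX-like factor MLX, those lower were ID1, ID3 and BHLHE41, helix-loop-helix regulators that the list holds beside the network itself. All of them but MYC lost their calls without any one of the libraries numbered 1 or 2. ID3 stood at 214, 326 and 256 and then at 197, 153 and 125 (difference -0.74, SE 0.21, adjusted p = 0.038). Its groups did not overlap. None of 20 aminoacyl-tRNA synthetase genes passed rescaled (0 to 7; 2 lower at an unadjusted p under 0.05), and 3 fell and 1 rose unnormalised.

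Cholesterol, lysosome and hypoxia genes had medians above that of all tested genes on both scales, while glycolysis and oxidative phosphorylation genes had medians below it. Of 27 cholesterol and fatty acid synthesis genes none rose and 1 fell rescaled (median -0.11; 0 to 4 fell), whereas 9 rose and 2 fell unnormalised (median 0.14; 5 to 7 rose without single libraries). INSIG1, the sterol sensor of the endoplasmic reticulum, stood at 8.93, 13.0 and 12.0 and then at 21.7, 17.4 and 13.6. Its groups did not overlap, just outside the threshold rescaled (difference 0.59, SE 0.18, adjusted p = 0.0519; unnormalised 0.85, adjusted p = 2.97e-08). SCD, a fatty acid desaturase, went from 60.9, 85.5 and 76.9 to 125, 108 and 80.3, overlapping (difference 0.47, adjusted p = 0.11; unnormalised 0.73, adjusted p = 3.86e-08). The member that fell, TM7SF2, a sterol reductase, went from 4.30, 4.98 and 5.82 to 3.24, 2.41 and 2.84 (difference -0.65, SE 0.13, adjusted p = 0.00708), without overlap. Its call was lost without 16 h number 2 or 24 h number 1.

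Of 29 lysosome and autophagy genes none passed rescaled (median -0.12; 0 to 3 fell; 2 lower at an unadjusted p under 0.05), and 10 rose and 2 fell unnormalised (median 0.14; 5 to 7 rose without single libraries). LAMP2, a lysosomal membrane protein, stood at 19.5, 25.2 and 23.1 and then at 31.6, 24.7 and 21.8, overlapping (difference 0.19, adjusted p = 0.36; unnormalised 0.45, adjusted p = 0.00217). Of 21 hypoxia response genes 3 fell rescaled (1 to 9), and 7 rose and 4 fell unnormalised (7 and 2 centred), CA9, CA12 and SLC2A1 among those higher. ANGPTL4, an inhibitor of lipoprotein lipase, stood at 3.50, 5.0 and 4.86 and then at 1.75, 1.72 and 1.60. It fell without overlap (difference -1.01, SE 0.13, adjusted p = 0.000192; unnormalised -0.76, adjusted p = 8.55e-06). Of 23 glycolysis genes 1 fell rescaled, ENO2 (-0.92, adjusted p = 0.00638; lost without 16 h number 1 or 24 h number 2), and 3 rose and 3 fell unnormalised. None of 29 oxidative phosphorylation genes passed rescaled (0 to 22; 14 lower at an unadjusted p under 0.05). Unnormalised 9 fell but none on centred values, and 0 fell unnormalised without 16 h number 1 against 16 without 24 h number 0.

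Interferon, antigen presentation and proteasome genes held no call on the rescaled scale, while some splicing factor genes fell. None of 20 interferon response genes passed rescaled (0 to 5 fell; 4 lower at an unadjusted p under 0.05) and 3 rose and 1 fell unnormalised. None of 21 antigen presentation genes passed rescaled (0 to 8 fell; 6 lower and 1 higher at an unadjusted p under 0.05), with 2 higher and 2 lower unnormalised. None of 26 proteasome genes passed rescaled (0 to 7 fell; 1 lower at an unadjusted p under 0.05), and 2 fell unnormalised. Of 29 splicing factor genes 4 fell (0 to 16), or 13.8% beside 7.63% of all genes. Unnormalised 6 rose and 10 fell, or 20.7% and 34.5% beside 11.1% and 18.6%. SRSF6, of the serine and arginine rich family, fell by 0.71 (adjusted p = 0.022), a call lost without any one of the libraries numbered 1 or 2. Of 31 genes of RNA polymerase II and elongation only ELL2, an elongation factor, fell rescaled (1 to 12 members fell without single libraries). ELL2 went from 3.88, 5.26 and 4.46 to 2.58, 2.21 and 1.79 without overlap (difference -0.79, SE 0.13, adjusted p = 0.00117).

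**Figure D5:**
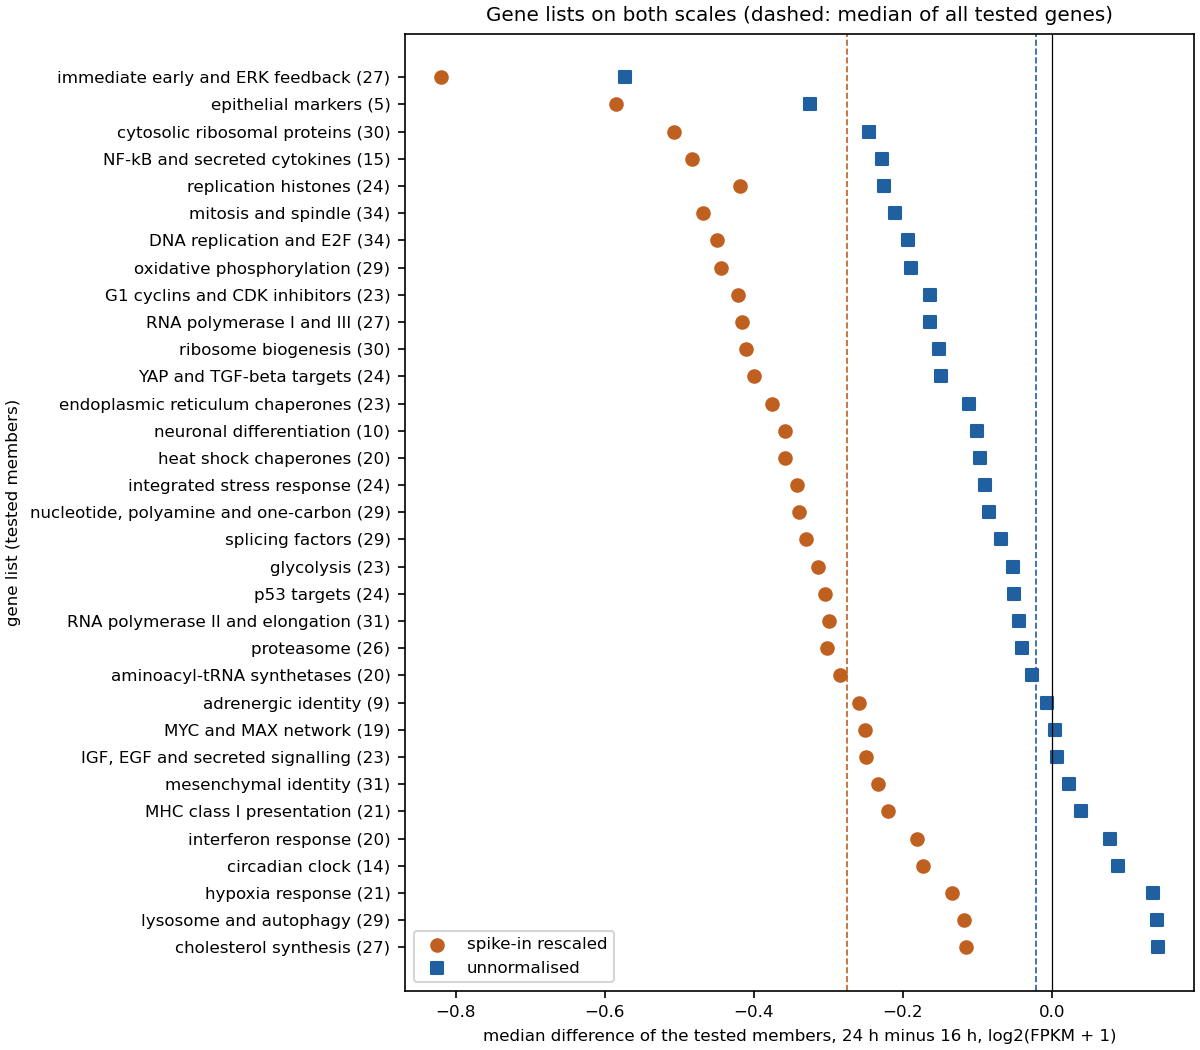
Median difference (24 h minus 16 h, log2 of FPKM + 1) of the tested members of each gene list with 5 or more of them, circles for rescaled and squares for unnormalised values; dashed lines are the medians of all tested genes (-0.27 and -0.02). The immediate early and ERK feedback list lies farthest left on both scales (-0.82 and -0.57), and cholesterol synthesis (-0.11 and 0.14) and lysosome genes (-0.12 and 0.14) lie farthest right.

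The labelled cell type was checked against its markers. Unnormalised FPKM were used here. Of 36 mesenchymal markers 31 had a mean of 1 or more, TIMP3 was listed at 0 in all 6, and COL1A2, COL6A3, CDH11 and RUNX2 stayed at or under 0.447. Vimentin (VIM, 483 to 516), SPARC (289.7 to 319.5) and LGALS1 (1142 to 1407) were high in all 6 libraries. Of 25 adrenergic markers 8 were listed at 0 in all 6, among them the neuroblastoma identity factor PHOX2A and the receptor genes ALK and RET, while HAND2 stood at 32.1 to 37.3. PHOX2A, ALK and RET were therefore not detected, in a line known to be mesenchymal. Yet 9 of the 25 adrenergic markers had a mean of 1 or more. Besides HAND2, GATA2 stood at 6.77 to 7.32, TBX2 at 4.07 to 4.80, ISL1 at 3.28 to 4.28 and KLF7 at 3.37 to 3.94. Of 25 neuronal markers 11 had a mean of 1 or more and 3 were listed at 0 in all 6, with UCHL1 at 832 to 956 and TUBB3 at 198 to 236. Summed mesenchymal markers ran from 4058 to 4182 at 16 h and from 4083 to 4108 at 24 h, and summed adrenergic markers from 71.8 to 75.0 and from 63.6 to 67.0. Of 9 tested adrenergic genes 2 fell rescaled (1 to 4) and 2 fell and 1 rose unnormalised. VGF, a neuropeptide precursor induced by growth factors, stood at 8.47, 12.2 and 11.7 and then at 4.05, 3.54 and 3.39 rescaled FPKM. It fell without overlap (difference -1.33, SE 0.18, adjusted p = 0.000247). Of 10 tested neuronal genes 3 fell (0 to 6), and 3 fell and 1 rose unnormalised.

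Of 15 epithelial markers 5 were tested, and EPCAM and CDH1 stood at or under 0.198 unnormalised FPKM. Their sum, mostly the keratins KRT8 and KRT18, ran from 1485 to 1646 at 16 h and from 1196 to 1251 at 24 h, so it was lower in each 24 h library. CLDN4, a tight junction protein, stood at 14.5, 23.4 and 19.4 and then at 10.3, 7.41 and 6.80 rescaled FPKM. It fell without overlap (difference -1.13, SE 0.18, adjusted p = 0.00114), and KRT7 (-0.57, adjusted p = 0.04) fell as well, a call lost without any one of the libraries numbered 1 or 2. Schwann and glial markers summed to 0.611 to 1.02 at 16 h and 0.779 to 0.792 at 24 h, with none tested. Blood and endothelial markers summed to 9.21 to 9.78 and to 8.19 to 9.25, nearly all of it CD68, and PTPRC and CD3E stood at or under 0.01.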

How the data were processed

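Polyadenylated RNA of SHEP-21N cells was sequenced after 0 to 24 h of doxycycline. Per the submitters' processing notes, HISAT, Cufflinks 2.0.0 and the hg19 build were used to make the values. The authors deposited FPKM per gene in 2 tables, one unnormalised and one rescaled to ERCC spike-ins by a method not given in the sources used here. Values of 0 in the unnormalised table (30.9% in the 6 libraries) read 0.0706 to 0.127 in the rescaled one. FPKM give no read number, so no depth or counting interval is stated.

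Columns were assigned to groups by the time in their names; their numbers 0 to 2 cannot be matched to the replicate numbers 1 to 3 of the sample titles. Log2(rescaled FPKM + 1) of genes with a mean unnormalised FPKM of at least 1 was fitted with limma 3.58.1 (R 4.3.3), with trend and 1 spread over all 7 times (3 libraries each, 2 at 0 h; 13 residual degrees of freedom), and 24 h was compared with 16 h. The contrast of 16 h with 8 h from the same fit was added after the data were seen. P-values were adjusted by Benjamini-Hochberg over all tested genes, and calls use an adjusted p under 0.05. The same fit on unnormalised values and on values centred by library was run beside it, as were a pseudocount of 0.1, other filters, a fit of the 6 libraries alone, a replicate block and leaving out each library. A gene was called non-overlapping when all 3 libraries of 24 h lay beyond all 3 of 16 h. The fit was tested on simulated data. The simulated noise was independent between genes and held no shift of a whole library, so that test does not cover such shifts. Promoters were read with Python 3.11.15, pandas 2.3.3 and numpy 2.4.6, and figures drawn with matplotlib 3.10.9.

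Named genes are MYCN and MYC, the 12 largest rises and 12 largest falls on the rescaled scale and 8 each unnormalised among called, non-overlapping genes, and up to 4 members of each of 36 lists with the smallest adjusted p on each scale. Small noncoding RNAs and unnamed loci were left out of the largest changes. Some genes outside this rule are named beside a list's count or as chosen after their values were seen. The comparison, its genes and the lists were chosen with earlier results of these data known.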

Additional observations from a re-analysis of the deposited data

How the results depend on the processing

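The 29 genes higher at 24 h became 1323 on unnormalised values, 1373 on centred values, 69 in the fit of 6 libraries alone and 54 with the replicate block, and ranged from 8 to 29 with 1 library left out. The 905 lower genes became 2205, 1367, 363 and 131 in the same order, and ranged from 121 to 4565. A pseudocount of 0.1, no filter and a filter on the 6 libraries stayed within 1.5 times of both counts. On unnormalised values higher genes ranged from 858 to 1081 and lower genes from 1431 to 1986 with 1 library left out; these runs, and the other settings tried on the unnormalised table, were chosen after seeing the data. MYCN, not called on the rescaled scale, was called higher at 0.47 unnormalised and 0.50 centred.

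Of 105 named genes called on the rescaled scale, 104 kept call and direction unnormalised, 99 centred, 105 with a pseudocount of 0.1, 86 with no filter, 58 in the fit of 6 libraries and 26 with the replicate block; 52 to 104 kept them with 1 library left out. In 4 named genes that were not called on the rescaled scale, with differences below 0, the sign turned and the gene was called higher on both other scales. Turns of sign without such a call were not counted. These were DARS (0.22 unnormalised, 0.25 centred), PFKM (0.14 and 0.17), LDHA (0.19 and 0.21) and HEXIM1 (0.22 and 0.25). The cause of these changes was not tested.

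Same-numbered libraries of 24 h and 16 h did not deviate together on the rescaled scale (r across genes of -0.068, 0.031 and 0.034 for numbers 0, 1 and 2), so the numbers were not taken as paired. Depth is unknown, and 3 libraries a time limit the precision.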
